A study of Mus musculus with 28 samples.

Results

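The comparison asks whether skin without VISTA altered its transcripts after ultraviolet B light (UVB) by a different amount than skin with VISTA. The measure is the log2 change after UVB in knockout skin minus that in wild-type skin. A positive difference means that UVB libraries stood higher relative to unirradiated ones in the knockout than in wild type. All 12 libraries of the whole-body knockout experiment were used, out of 28 in the series, with 3 libraries in each of 4 groups. KO UV libraries came from UVB-irradiated Vsir-/- mice, which carry the Vsir knockout in all tissues, and KO NoUV libraries from Vsir-/- mice that were not irradiated. WT UV libraries came from irradiated wild-type mice, and WT NoUV libraries from wild-type mice that were not irradiated. The other 16 libraries, which entered only a test between experiments, came from K14creVsirfl/fl mice, in which the keratin 14 promoter drives Cre in keratinocytes, and from Vsirfl/fl mice, each irradiated or not, with 4 libraries in each group. All mice were 12-week-old females, shaved and treated with a depilatory cream 5 days earlier, and the UVB dose was 500 mJ/cm². The sample titles and the design text give 3 h between UVB and harvest, whereas the treatment protocol gives 1 day, and the labels do not settle which applies. RNA came from skin, and stranded libraries were made after removal of ribosomal RNA. The design text speaks of biological replicates and littermate controls, but no label ties libraries to a litter, and the deleted Vsir exons are not given. In bulk skin, fewer cells of a type and less RNA per cell cannot be told apart.

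VISTA, encoded by Vsir, is an inhibitory immune checkpoint protein of the B7 family that is found mainly on myeloid cells and T cells and restrains their activation. UVB damages DNA in keratinocytes and sets off p53 signalling, chemokine release and, through sensors of nucleic acids, type I interferon. Interferon binds its receptor on neighbouring cells, and a complex of transcription factors then switches on antiviral genes through a promoter element, the interferon-stimulated response element.

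Total counts ran from 30.47 to 43.84 M per library. WT UV 2 and WT NoUV 1 stood apart from the other 10 libraries on the second principal component (21.4% of the variance), at -72.8 and -73.2, with the others between -19.5 and 36.9. Gm42418, a predicted gene known to collect ribosomal RNA reads, took 7.21% to 14.15% of the counts in 10 libraries but was not the leading gene in KO UV 3 and KO NoUV 2. All 12 libraries carry the same batch label. The fit was repeated without each library in turn, and the difference of 56 of the 86 genes whose difference is given here moved by over 1.5 times or turned its sign without at least 1 library, for 28 of them without WT NoUV 1 and for 21 without KO UV 2. Wherever the lowest or the highest of these 12 values passed that limit, it stands after the gene's interval with the library left out. The median of each gene list is given with its lowest and highest value over the 12 fits. Counts of list members above 0 stand against 54.1% of all genes, and those at an unadjusted p under 0.05 by edgeR against 1.54%.

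No gene passed the test of the difference. By edgeR's quasi-likelihood test, 0 of 20365 genes (0%) had a Benjamini-Hochberg adjusted p under 0.05, and the smallest adjusted p was 0.9999. DESeq2 and limma-voom also called 0 genes. The unadjusted p was under 0.05 for 313 genes (1.54%), of which 183 (0.899%) had a difference above 0 and 130 (0.638%) one below 0. An even spread of p would give a share of 0.05. In steps of 0.05, the lowest p held 1.54% of genes and the highest 7.42%. The p-values of this fit, and the intervals that go with them, may therefore err on the large side, and the cause was not tested. Over all genes the median difference was 0.023, with 11010 genes (54.1%) above 0. Every gene named below therefore had an adjusted p of 0.9999 or more in that test, and values are given with their 95% intervals. The median gene had an interval of 0.798 to either side of its estimate on the log2 scale. This half-width was 1.66 for genes with a mean log2 CPM (counts scaled to library size) below 0 and 0.517 for those at 6 or above. These widths are not adjusted for the number of genes and are not limits of detection. Larger differences were not called either, such as 2.099 for Slfn4 and 1.41 for Ngfr.

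**Figure D1:**
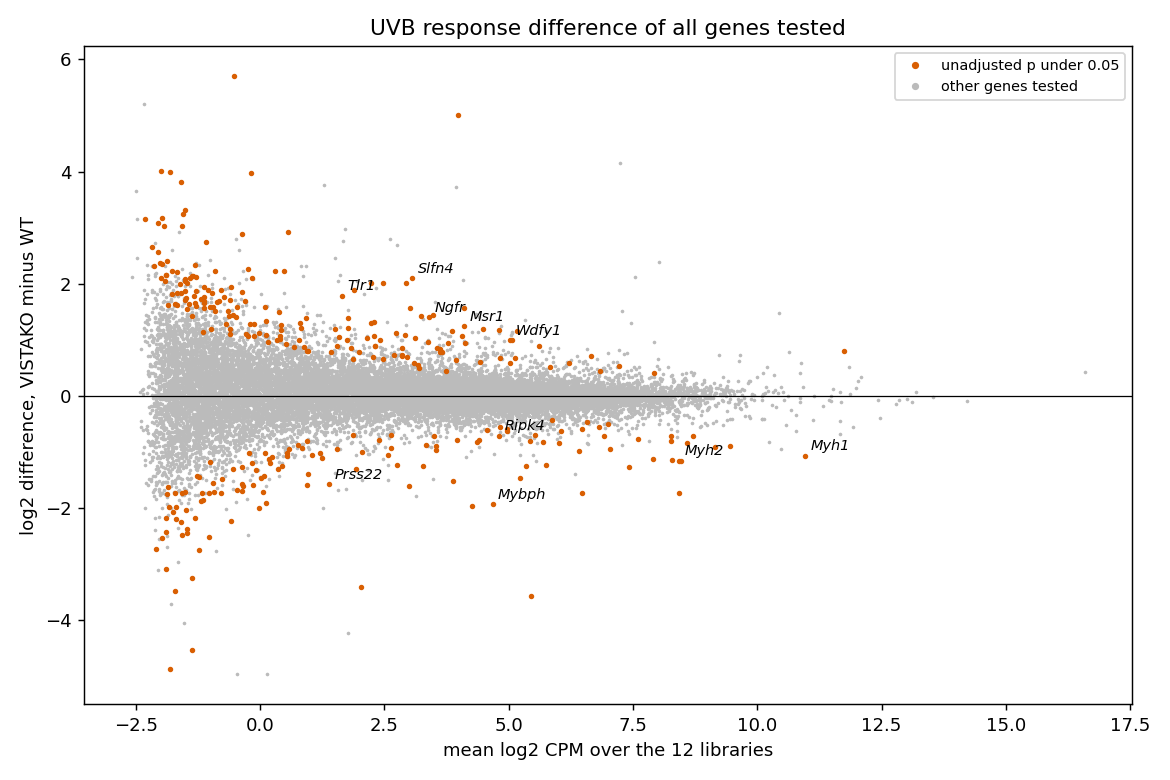
Each point is 1 of 20365 genes, with its mean log2 CPM over the 12 libraries on the x axis and the difference of the UVB response, knockout minus wild type (log2), on the y axis. Orange points are the 313 genes with an unadjusted p under 0.05, 10 genes are labelled, and the spread of the differences narrows toward higher levels.

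Vsir was read first, as a check of the labels. Its levels, in CPM after TMM scaling as all levels below, were 3.24, 3.76 and 1.98 CPM in KO UV, 6.87, 6.50 and 5.07 CPM in KO NoUV, 21.98, 20.2 and 24.0 CPM in WT UV and 46.1, 34.6 and 34.5 CPM in WT NoUV. Every knockout library lay below every wild-type library, with reads left in the knockout. The difference of the UVB response was -0.25 (95% interval -0.93 to 0.43, -0.45 without KO UV 2 and -0.013 without KO UV 3).

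Among genes at a mean log2 CPM of 1 or more, the smallest p above 0 belonged to Wdfy1 (chromosome 1, GRCm38 79702262 to 79776143, minus strand), an adaptor that brings TRIF to Toll-like receptors 3 and 4. Wdfy1 had 27.4, 28.5 and 27.8 CPM in KO UV, 15.2, 13.9 and 13.1 CPM in KO NoUV, 49.3, 37.6 and 46.2 CPM in WT UV and 38.3, 46.1 and 49.1 CPM in WT NoUV. KO UV and KO NoUV did not overlap, with KO UV higher, WT UV and WT NoUV overlapped, and all knockout libraries lay below all wild-type libraries. The difference was 0.99 (95% interval 0.55 to 1.44), and 0.88 to 1.09 when each library was left out in turn.

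For Ngfr and A4galt the WT UV libraries alone were low. Ngfr (chromosome 11, GRCm38 95568818 to 95587735, minus strand), the p75 neurotrophin receptor and a Schwann cell marker, had 11.4, 13.9 and 15.9 CPM in KO UV, 11.3, 15.7 and 15.1 CPM in KO NoUV, 4.58, 3.01 and 3.76 CPM in WT UV and 12.9, 7.98 and 9.80 CPM in WT NoUV. The WT UV libraries lay below the other 9, which overlapped. The difference was 1.41 (95% interval 0.70 to 2.11). A4galt, the synthase of the glycolipid Gb3, had 10.49, 10.7 and 7.89 CPM in KO UV, 10.6, 8.55 and 8.77 CPM in KO NoUV, 5.29, 5.02 and 5.18 CPM in WT UV and 10.6, 9.56 and 10.1 CPM in WT NoUV. Its WT UV libraries again lay below the other 9, and the difference was 1.03 (95% interval 0.49 to 1.56).

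For Msr1, Slfn4 and 4 further genes the KO UV libraries alone were high. Msr1 (chromosome 8, GRCm38 39581685 to 39642673, minus strand), a scavenger receptor of macrophages, had 29.8, 41.0 and 33.5 CPM in KO UV, 10.9, 13.7 and 14.6 CPM in KO NoUV, 9.30, 9.76 and 13.9 CPM in WT UV and 11.9, 5.93 and 11.4 CPM in WT NoUV. The 3 KO UV libraries lay above the other 9, and the difference was 1.24 (95% interval 0.46 to 2.02). Slfn4, an interferon-inducible Schlafen gene of mouse myeloid cells, had 23.1, 29.5 and 19.5 CPM in KO UV, 2.55, 3.04 and 2.11 CPM in KO NoUV, 3.62, 5.49 and 4.70 CPM in WT UV and 4.32, 0.694 and 1.195 CPM in WT NoUV. KO UV lay above all other libraries, and WT NoUV 1 was above the other WT NoUV libraries. The Slfn4 difference was 2.099 (95% interval 0.67 to 3.53, 0.94 without WT NoUV 1).

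The same arrangement held for the T cell costimulatory ligand Cd80 (1.05, 95% interval 0.33 to 1.76), the adhesion and inhibitory receptor Ceacam1 (1.04, 95% interval 0.36 to 1.72), the urokinase gene Plau (1.16, 95% interval 0.36 to 1.97) and the homeobox gene En1 (1.06, 95% interval 0.36 to 1.77). Cd80 stood at 4.44 to 4.66 CPM in KO UV, 2.39 to 3.18 CPM in KO NoUV, 1.63 to 2.65 CPM in WT UV and 2.31 to 2.75 CPM in WT NoUV. Tlr1, which pairs with Toll-like receptor 2 to bind bacterial lipopeptides, had 3.11, 4.07 and 5.27 CPM in KO UV, 1.76, 2.59 and 4.28 CPM in KO NoUV, 1.74, 1.10 and 1.85 CPM in WT UV and 4.80, 1.93 and 4.42 CPM in WT NoUV. WT UV was the lowest group and overlapped KO NoUV only through KO NoUV 1, and the difference was 1.79 (95% interval 0.58 to 2.99). Outside the naming rule, and chosen after its values were seen, Dynlt1b had the smallest p of all tested genes (2.92, 95% interval 1.62 to 4.22). It is a low gene with near-identical copies, at 1.32 to 2.88 CPM in KO UV, 0.212 to 0.769 CPM in KO NoUV, 0.854 to 1.43 CPM in WT UV and 1.83 to 2.62 CPM in WT NoUV, and its counts are uncertain.

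Of the 10 leading genes below 0, 6 encode sarcomere proteins of muscle. Myh2 (chromosome 11, GRCm38 67171027 to 67197517, plus strand), a myosin heavy chain of fast fibres, had 324, 320.4 and 291 CPM in KO UV, 489, 499 and 399 CPM in KO NoUV, 511, 269 and 293 CPM in WT UV and 204, 277 and 234 CPM in WT NoUV. KO NoUV lay above KO UV without overlap, and WT UV overlapped WT NoUV, with WT UV 1 above every other library. The difference was -1.16 (95% interval -1.82 to -0.49), and -0.82 without WT UV 1. Myh1, another fast myosin, had 2695, 4275 and 2749 CPM in KO UV, 1315, 1085 and 1133 CPM in KO NoUV, 4408, 2416 and 2384 CPM in WT UV and 534, 513 and 555 CPM in WT NoUV. UV libraries lay above NoUV libraries in both genotypes, and WT NoUV was the lowest group. The Myh1 difference was -1.06 (95% interval -1.82 to -0.31). Myom3 of the M band (-1.23, 95% interval -2.04 to -0.42), the myosin-binding genes Mybpc1 (-0.89, 95% interval -1.55 to -0.24) and Mybph (-1.93, 95% interval -3.35 to -0.51) and the anchoring gene Nrap (-1.15, 95% interval -1.99 to -0.31) completed the 6.

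The other 4 were Ripk4, Plet1, Prss22 and Rgs4. Ripk4, a kinase needed for epidermal differentiation, had 12.0, 9.32 and 9.69 CPM in KO UV, 41.7, 39.0 and 37.8 CPM in KO NoUV, 18.8, 18.4 and 18.3 CPM in WT UV and 48.1, 38.9 and 42.1 CPM in WT NoUV. KO UV lay below WT UV without overlap, and KO NoUV overlapped WT NoUV. The difference was -0.71 (95% interval -1.15 to -0.28), and -0.85 to -0.65 when each library was left out in turn. Plet1, a marker of the upper hair follicle in mouse skin, stood at 27.97 to 38.1 CPM in KO UV, 57.8 to 64.8 CPM in KO NoUV, 36.9 to 49.1 CPM in WT UV and 45.2 to 54.6 CPM in WT NoUV (-0.70, 95% interval -1.18 to -0.22). The serine protease gene Prss22 was lowest in KO UV, at 0.928 to 1.39 CPM in KO UV, 2.39 to 3.04 CPM in KO NoUV, 2.91 to 4.69 CPM in WT UV and 1.93 to 3.99 CPM in WT NoUV (-1.57, 95% interval -2.50 to -0.64). Rgs4, a regulator of G protein signalling, was highest in KO NoUV, at 5.84 to 10.1 CPM in KO UV, 13.4 to 20.02 CPM in KO NoUV, 5.17 to 9.22 CPM in WT UV and 4.07 to 7.32 CPM in WT NoUV (-1.26, 95% interval -2.15 to -0.37).

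**Figure D2:**
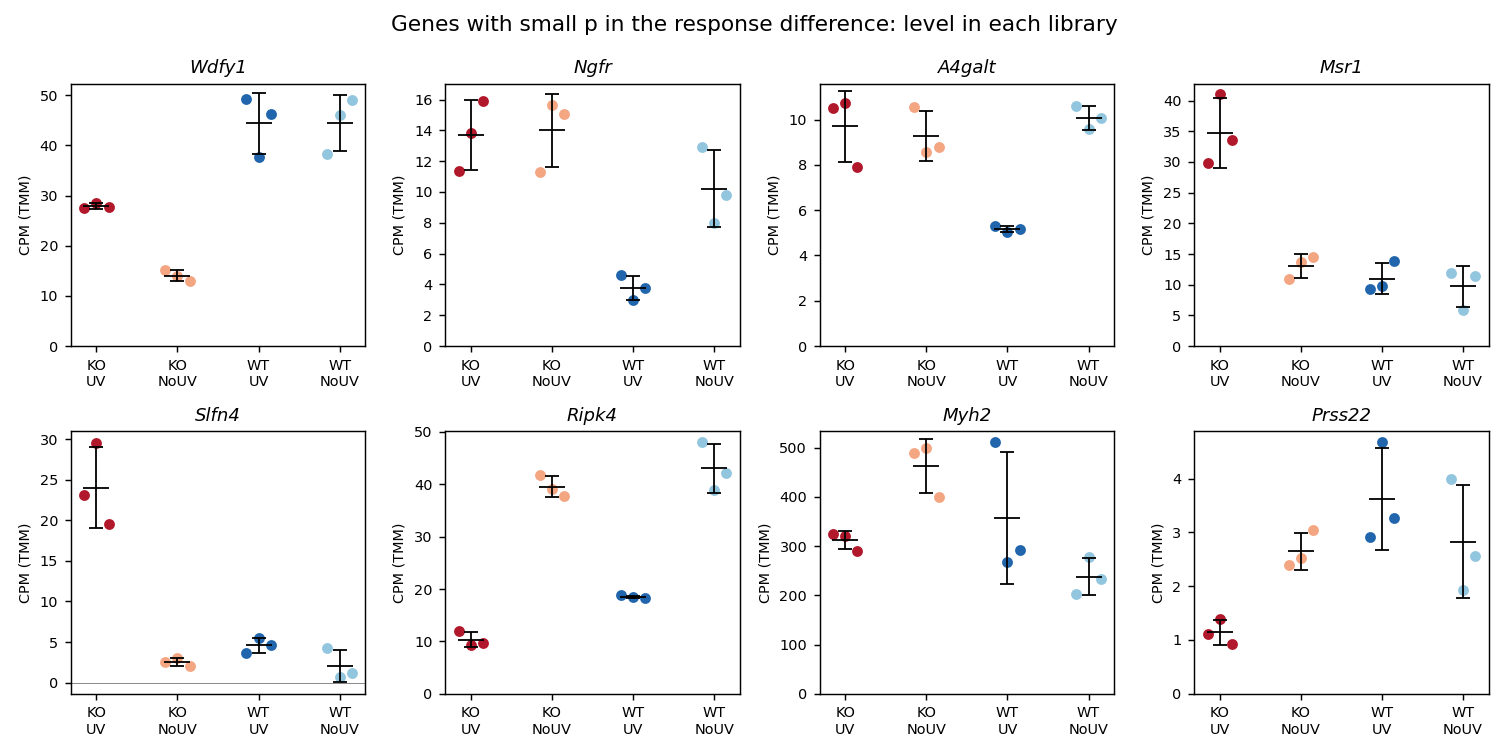
Level (CPM after TMM scaling) of 8 leading genes in each library of KO UV, KO NoUV, WT UV and WT NoUV, with bars at the mean ± SD of 3 libraries. KO UV alone is high for Msr1 and Slfn4, WT UV alone is low for Ngfr and A4galt, and KO UV lies below WT UV for Ripk4.

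Interferon-stimulated genes, the antiviral genes downstream of the interferon receptor, lay mostly above 0. Of 41 listed genes, 40 were tested, since Ifi44l had at most 4 counts in any library. Above 0 were 36 of them (90%), against 54.1% of all genes, and their median was 0.42, against 0.023 for all genes. None was called, and Phf11d alone had an unadjusted p under 0.05. Their summed level was 1061 to 1699 CPM in KO UV, 868 to 1117 CPM in KO NoUV, 555 to 866 CPM in WT UV and 532 to 810.0 CPM in WT NoUV, with KO UV 1 and KO UV 3 inside the range of KO NoUV. The members ranged from -0.51 to 1.15, and 20 of 40 kept their sign whichever library was left out, against 37.7% of all genes.

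Irf7, the transcription factor that amplifies type I interferon, had 27.2, 43.8 and 30.2 CPM in KO UV, 11.7, 15.02 and 11.7 CPM in KO NoUV, 7.84, 17.3 and 17.8 CPM in WT UV and 18.4, 3.95 and 8.87 CPM in WT NoUV. KO UV lay above all other libraries, and WT UV overlapped WT NoUV, where WT NoUV 1 exceeded every WT UV library. The difference was 0.94 (95% interval -0.38 to 2.27, 0.24 without WT NoUV 1). Oas2, which makes the messenger that activates RNase L, had 23.7, 48.5 and 27.6 CPM in KO UV, 7.003, 9.77 and 7.27 CPM in KO NoUV, 8.91, 12.0 and 14.7 CPM in WT UV and 8.99, 2.78 and 5.05 CPM in WT NoUV. KO UV again lay above all others, and WT UV met WT NoUV only at WT NoUV 1. The Oas2 difference was 0.98 (95% interval -0.15 to 2.11, 0.45 without WT NoUV 1).

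Phf11d, an interferon-induced gene, had 16.3, 22.4 and 13.6 CPM in KO UV, 10.46, 12.8 and 11.4 CPM in KO NoUV, 6.17, 3.23 and 6.77 CPM in WT UV and 7.12, 4.92 and 8.90 CPM in WT NoUV. All knockout libraries lay above all wild-type libraries, KO UV above KO NoUV, and WT UV overlapped WT NoUV. The difference was 0.97 (95% interval 0.087 to 1.85). The antiviral GTPase gene Mx1 (0.73, 95% interval -0.57 to 2.04, 0.16 without WT NoUV 3 and 1.35 without WT UV 3) and the transducer gene Stat2 (0.51, 95% interval -0.12 to 1.15, 0.28 without KO UV 2) had intervals that included 0. That of the ubiquitin-like modifier gene Isg15 (0.40, 95% interval -1.42 to 2.23, -0.83 without WT NoUV 1 and 0.75 without KO NoUV 2) did as well. Ifit1, which binds foreign RNA, had 31.0, 47.8 and 18.0 CPM in KO UV, 15.4, 16.7 and 13.3 CPM in KO NoUV, 4.91, 2.59 and 27.7 CPM in WT UV and 6.92, 3.79 and 9.29 CPM in WT NoUV. WT UV 3 stood far above the other WT UV libraries. The Ifit1 difference was 0.28 (95% interval -1.73 to 2.29, -0.20 without WT UV 2 and 1.92 without WT UV 3).

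The median of the interferon-stimulated list depended on which libraries entered. It was 0.073 without KO UV 2 (25 of 40 above 0), 0.27 without WT NoUV 1 (29 above 0), 0.23 without WT NoUV 3 (29 above 0) and 0.77 without WT UV 3 (38 above 0). Without WT UV 2 and WT NoUV 1 together it was 0.14, with 28 of 40 above 0, against 49.5% of all genes. Without KO UV 3 and KO NoUV 2 together it was 0.66. With the mean levels of the skeletal muscle and growing hair follicle lists as covariates it was 1.25, 38 of 40 lay above 0, against 53% of all genes, and 23 had an unadjusted p under 0.05, against 5.58% of all genes in that fit, with 0 called. Each covariate was the mean log2 CPM over a list's members. That of the hair follicle was 0.14 to 0.9 in KO UV, 1.55 to 1.9 in KO NoUV, 0.72 to 3.09 in WT UV and 1.78 to 3.66 in WT NoUV. UV and NoUV did not overlap in the knockout, whereas WT UV 3 lay above WT NoUV 1 and WT NoUV 2. Both covariates had a UVB response difference of their own, -0.52 for muscle and -0.43 for hair follicle. That fit can therefore shift differences that go with them.

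Promoters of the interferon-stimulated list were read because its members share a known response element. Its core, GAAA and GAAA with 2 bases of any kind (NN) between them, was searched on both strands, overlapping matches included, from 250 bases before to 50 bases after each gene start in RefSeq (GRCm38.p6), and 1131 of 32851 windows (3.44%) held it. Of the 30 tested list members with a window, 14 (46.7%) held it in any of their windows, against 3.95% of all tested genes with a window. Those 14 had a median difference of 0.49, against 0.42 for the 16 without it. Among 12930 tested genes with a window, the 511 with the core had 61.4% above 0, against 52.9% of the others. The 511 include the 14 list members, 12 of which lay above 0. These shares were not refitted without single libraries. The windows of the 3 list members with the core and the smallest p follow, written 5′ to 3′ on the gene's strand with the core in capitals. They belong to Trim30a (chr7:104465144-104465443, minus strand), Stat2 (chr10:128270248-128270547, plus strand) and Oas1g (chr5:120887564-120887863, minus strand), and the core stands on the opposite strand in Trim30a and Stat2 and as 2 overlapping copies on the gene's strand in Oas1g. Trim30a had a further window with the core, which is not printed.
Trim30a: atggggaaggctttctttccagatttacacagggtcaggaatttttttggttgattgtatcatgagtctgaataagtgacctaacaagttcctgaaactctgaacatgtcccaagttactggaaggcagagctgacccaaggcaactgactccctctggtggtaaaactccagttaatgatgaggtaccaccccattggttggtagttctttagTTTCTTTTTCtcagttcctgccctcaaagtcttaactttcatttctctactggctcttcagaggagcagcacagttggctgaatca
Stat2: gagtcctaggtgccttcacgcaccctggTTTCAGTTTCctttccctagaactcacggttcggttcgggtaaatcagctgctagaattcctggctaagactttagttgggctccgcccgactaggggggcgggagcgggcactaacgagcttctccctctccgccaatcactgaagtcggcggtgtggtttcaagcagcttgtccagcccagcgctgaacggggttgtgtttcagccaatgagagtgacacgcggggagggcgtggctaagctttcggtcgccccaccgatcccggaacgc
Oas1g: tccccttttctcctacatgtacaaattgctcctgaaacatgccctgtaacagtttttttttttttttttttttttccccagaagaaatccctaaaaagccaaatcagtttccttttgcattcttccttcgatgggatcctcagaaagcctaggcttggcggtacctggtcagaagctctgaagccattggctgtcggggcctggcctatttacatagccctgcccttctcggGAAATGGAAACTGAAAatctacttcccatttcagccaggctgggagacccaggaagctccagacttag

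Trim30a, an interferon-induced TRIM family gene, had 36.2, 70.2 and 41.8 CPM in KO UV, 23.6, 30.9 and 32.2 CPM in KO NoUV, 15.7, 13.7 and 25.7 CPM in WT UV and 18.0, 13.2 and 22.4 CPM in WT NoUV. The KO UV libraries were the 3 highest, WT UV overlapped WT NoUV, and the difference was 0.73 (95% interval -0.15 to 1.62, 0.39 without KO UV 2). Oas1g, a relative of Oas2, had the highest difference of the list (1.15, 95% interval -0.49 to 2.78, 0.28 without WT NoUV 1) at 2.52 to 6.68 CPM in KO UV, 0.824 to 1.84 CPM in KO NoUV, 0.937 to 2.13 CPM in WT UV and 0.448 to 1.85 CPM in WT NoUV. Counts of Trim30a and Oas1g are uncertain, since near-identical relatives can share their reads.

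**Figure D3:**
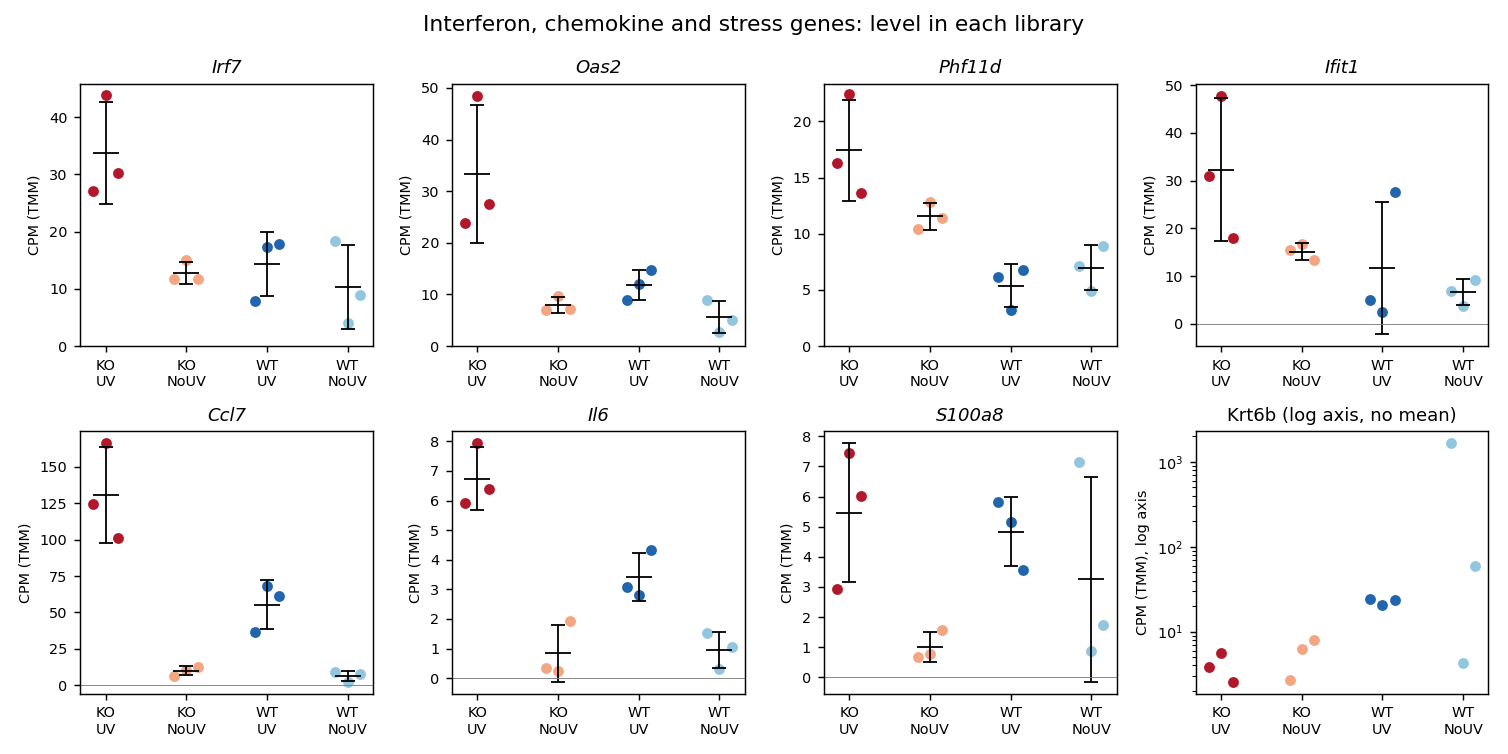
Level (CPM after TMM scaling) of 8 interferon, chemokine, cytokine, alarmin and keratin genes in each library of KO UV, KO NoUV, WT UV and WT NoUV, with bars at the mean ± SD of 3 libraries (Krt6b on a log axis, without a mean). KO UV is highest for Irf7, Oas2, Ccl7 and Il6, and WT NoUV 1 stands far above its group for Krt6b.

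Of the 31 ligands, receptors and sensors that act upstream of that response, 23 were tested and 19 lay above 0, with a median of 0.16 and 0 at an unadjusted p under 0.05. Their median ran from 0.14 without KO UV 2 (17 above 0) to 0.26 without WT NoUV 2 (18 above 0). Ifnb1 had at most 1 count and the keratinocyte interferon gene Ifnk at most 7 in any library, so these ligands could not be compared. Zbp1, a sensor of Z-form nucleic acids, had 18.2, 36.3 and 16.3 CPM in KO UV, 10.4, 16.2 and 12.5 CPM in KO NoUV, 3.68, 5.02 and 9.88 CPM in WT UV and 11.4, 3.57 and 7.32 CPM in WT NoUV. KO UV 2 was the highest library, and KO UV 3 was level with KO NoUV 2. The Zbp1 difference was 1.13 (95% interval -0.21 to 2.46, 0.67 without WT NoUV 1). The receptor chain gene Ifnar1 (0.28, 95% interval -0.12 to 0.67, 0.18 without WT NoUV 3) and the low gene Ifng, the interferon of T and NK cells (-1.77, 95% interval -4.30 to 0.76, -0.028 without WT UV 3), had intervals that included 0.

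The GTPases and chemokines induced by interferon gamma had 16 of 20 above 0 (median 0.18), with a range of the median from -0.42 without KO UV 2 (1 above 0) to 0.50 without WT UV 3 (16 above 0). Cxcl10, a chemokine for activated T cells, had 1.38, 7.65 and 2.20 CPM in KO UV, 7.69, 15.5 and 17.4 CPM in KO NoUV, 0.581, 1.76 and 4.78 CPM in WT UV and 2.86, 2.46 and 5.79 CPM in WT NoUV. KO NoUV was the highest group, and WT UV overlapped WT NoUV. The Cxcl10 difference was -1.23 (95% interval -3.31 to 0.85, -2.28 without KO UV 2 and -0.23 without WT UV 3). The low gene Cxcl11, a relative of Cxcl10, had 2.09 (95% interval -0.12 to 4.31, 3.38 without WT UV 3) and the GTPase gene Tgtp1 -1.43 (95% interval -3.09 to 0.24, -2.15 without KO UV 2 and -0.82 without KO NoUV 2). Antigen presentation genes had 7 of 20 above 0, with a median of -0.080 and a range from -0.32 without KO UV 2 (1 above 0) to 0.096 without WT UV 2 (12 above 0). Without KO UV 3 and KO NoUV 2 together 20 of 20 lay above 0 (median 0.15). With the muscle and hair follicle levels as covariates 16 of 20 antigen presentation genes lay above 0 (median 0.30), against 53% of all genes. In that fit 17 of 20 interferon gamma genes lay above 0 (median 1.35). Of these 20 genes, 11 had an unadjusted p under 0.05 by edgeR, against 5.58% of all genes, and 0 were called.

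Chemokines that attract monocytes and neutrophils had 10 of 11 tested members above 0 and a median of 0.59, with 0 at an unadjusted p under 0.05. Ccl7, which attracts monocytes, had 125, 166 and 101 CPM in KO UV, 6.56, 10.9 and 12.4 CPM in KO NoUV, 36.4, 68.5 and 61.4 CPM in WT UV and 8.90, 2.40 and 7.65 CPM in WT NoUV. KO UV lay above WT UV without overlap, and KO NoUV overlapped WT NoUV. The difference on the log2 scale was 0.59 (95% interval -0.60 to 1.77, 0.25 without WT NoUV 1 and 0.93 without WT NoUV 2). The monocyte chemokines Ccl9 (0.55, 95% interval -0.14 to 1.25, 0.26 without WT NoUV 1), Ccl2 (0.19, 95% interval -0.73 to 1.11, -0.071 without WT UV 1 and 0.52 without WT UV 2) and Ccl4 (2.42, 95% interval -0.53 to 5.37, -0.14 without WT NoUV 1 and 3.66 without KO NoUV 3) had intervals that included 0, as had the neutrophil chemokines Cxcl2 (2.16, 95% interval -0.66 to 4.98, 0.17 without WT NoUV 1) and Cxcl1 (-0.71, 95% interval -2.56 to 1.14, -1.28 without KO NoUV 1 and 0.52 without KO NoUV 3). Cxcl2 stood at 3.53 CPM in WT NoUV 1, against 0 and 0.717 CPM in the other WT NoUV libraries. The list median ran from 0.12 without WT NoUV 1 (7 above 0) to 0.86 without WT NoUV 2 (10 above 0).

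Inflammatory cytokines had 15 of 26 tested members above 0 and a median of 0.083, with a range from -0.079 without KO NoUV 1 (13 above 0) to 0.39 without KO NoUV 3 (17 above 0). Osm, a cytokine of the interleukin 6 family that acts on keratinocytes, alone had an unadjusted p under 0.05. Osm had 2.11, 3.51 and 1.54 CPM in KO UV, 0.357, 0.235 and 0.376 CPM in KO NoUV, 1.16, 1.85 and 0.740 CPM in WT UV and 1.52, 0.316 and 0.508 CPM in WT NoUV. KO UV and KO NoUV did not overlap, whereas WT UV and WT NoUV did. The difference was 2.23 (95% interval 0.57 to 3.90, 1.28 without WT NoUV 1). Il6 itself had 5.90, 7.93 and 6.40 CPM in KO UV, 0.330, 0.235 and 1.94 CPM in KO NoUV, 3.07, 2.81 and 4.33 CPM in WT UV and 1.52, 0.316 and 1.05 CPM in WT NoUV. KO UV lay above WT UV without overlap, KO NoUV overlapped WT NoUV, and the difference was 1.24 (95% interval -0.67 to 3.14, 0.73 without WT NoUV 1 and 2.74 without KO NoUV 3). Intervals also included 0 for the inflammatory cytokine genes Il1b (0.065, 95% interval -1.33 to 1.46, -0.48 without WT NoUV 1 and 0.35 without KO NoUV 3), Tnf (-0.43, 95% interval -1.97 to 1.11, -0.92 without WT UV 1 and 0.028 without WT UV 3) and Il19 (2.04, 95% interval -0.42 to 4.51) and for Csf1, a growth factor of macrophages (0.49, 95% interval -0.18 to 1.17, 0.26 without WT NoUV 1).

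Of the pathways of DNA damage, the p53 targets had 13 of 25 above 0 and nucleotide excision repair, which removes UVB photoproducts, 13 of 25 (median 0.016). The p53 target median ran from -0.078 without WT NoUV 3 (11 above 0) to 0.080 without WT UV 3 (17 above 0), and that of excision repair from -0.067 without WT NoUV 2 (9 above 0) to 0.013 without KO UV 2 (13 above 0). Cdkn1a, which encodes the cell cycle inhibitor p21, had 327, 241 and 217 CPM in KO UV, 164, 139.7 and 106 CPM in KO NoUV, 248.8, 449 and 342 CPM in WT UV and 217, 159.6 and 122 CPM in WT NoUV. UV libraries lay above NoUV libraries without overlap in both genotypes, and the difference was -0.12 (95% interval -0.91 to 0.66, -0.36 without WT NoUV 1 and 0.11 without WT UV 2). The p53 regulator gene Mdm2 (0.13, 95% interval -0.36 to 0.63, 0.0016 without WT UV 2 and 0.34 without WT UV 3) and the repair clamp gene Pcna (0.30, 95% interval -0.16 to 0.77, 0.18 without WT UV 2) had narrower intervals that also included 0. The p53-induced receptor gene Eda2r (-1.08, 95% interval -2.30 to 0.13) and the low gene Gdf15 (1.86, 95% interval -1.51 to 5.23, 3.64 without KO NoUV 2) had wider ones.

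Immediate early genes had 12 of 22 above 0 (median 0.080), and their median ran from -0.25 without WT NoUV 1 (8 above 0) to 0.23 without KO NoUV 3 (18 above 0). Among them were the stress factor gene Atf3 (-0.66, 95% interval -1.72 to 0.41, -0.42 without WT UV 3) and the transcription factor genes Egr2 (-0.43, 95% interval -1.01 to 0.15, -0.28 without KO NoUV 3) and Myc (0.34, 95% interval -0.18 to 0.87, 0.17 without WT NoUV 1), all with intervals that included 0. Targets of NRF2, the regulator of the oxidative stress response, had 12 of 15 above 0 (median 0.20), among them the heme oxygenase gene Hmox1 (0.85, 95% interval -0.36 to 2.06, 0.43 without KO UV 2 and 1.42 without WT UV 3). The NRF2 target median ran from 0.079 without WT NoUV 1 (9 above 0) to 0.24 without WT UV 3 (11 above 0). Heat shock genes had 8 of 11 above 0 (median 0.048), the circadian clock 10 of 16 (median 0.080) and the cell cycle 13 of 20 (median 0.090). These 3 medians changed sign with single libraries left out. The heat shock median ran from -0.012 without KO NoUV 3 (5 above 0) to 0.18 without KO NoUV 2 (10 above 0), the clock median from -0.12 without KO NoUV 2 (7 above 0) to 0.18 without KO UV 2 (13 above 0) and the cell cycle median from -0.17 without KO UV 3 (2 above 0) to 0.32 without KO UV 2 (19 above 0). With the muscle and hair follicle levels as covariates 5 of 22 immediate early genes (median -0.51) and 2 of 20 cell cycle genes (median -0.30) lay above 0. In that fit the clock had 7 of 16 above 0 (median -0.14), NRF2 targets 9 of 15 (median 0.023) and heat shock genes 8 of 11 (median 0.31), against 53% of all genes.

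Stress keratins rested on WT NoUV 1. Krt6b, a keratin of wounded and stressed epidermis, had 3.83, 5.57 and 2.56 CPM in KO UV, 2.66, 6.22 and 7.96 CPM in KO NoUV, 24.2, 20.4 and 23.5 CPM in WT UV and 1658, 4.23 and 59.5 CPM in WT NoUV. WT NoUV 1 stood far above every other library. The Krt6b difference was 4.16 (95% interval 0.00036 to 8.32, -0.013 without WT NoUV 1). The stress keratin genes Krt6a (2.39, 95% interval -0.61 to 5.38, -0.63 without WT NoUV 1) and Krt16 (2.13, 95% interval -1.02 to 5.28, -1.02 without WT NoUV 1) were also highest in that library, at 1882 and 1590.0 CPM. Counts of Krt6a and Krt6b are uncertain, since near-identical relatives can share their reads. The list of epidermal stress genes and EGF receptor ligands had 6 of 13 above 0 (median -0.11), with a range from -0.52 without WT NoUV 1 (1 above 0) to 0.37 without KO NoUV 3 (8 above 0). Epidermal differentiation had 14 of 24 above 0 (median 0.016) and basal keratinocyte genes 2 of 13 (median -0.13). The differentiation median ran from -0.15 without WT UV 1 (4 above 0) to 0.26 without WT UV 2 (21 above 0) and the basal median from -0.30 without WT UV 3 (3 above 0) to 0.015 without WT UV 2 (7 above 0). With the muscle and hair follicle levels as covariates 3 of 24 differentiation genes lay above 0 (median -0.84), against 53% of all genes. In that fit 10 had an unadjusted p under 0.05, against 5.58% of all genes, and 0 were called. Without the covariates 0 had an unadjusted p under 0.05. The muscle and hair follicle levels had a difference of their own, as given above.

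Checkpoint genes and VISTA partners had 6 of 16 tested members above 0 (median -0.047). Cd80 above 0 and Tigit below 0 had an unadjusted p under 0.05, against 0.899% and 0.638% of all genes in those directions. The list median ran from -0.35 without KO UV 2 (4 above 0) to 0.11 without KO UV 1 (9 above 0). Tigit, an inhibitory receptor of T and NK cells, had 0.0345, 0.174 and 0.0244 CPM in KO UV, 0.467, 0.494 and 0.608 CPM in KO NoUV, 0.258, 0.165 and 0.256 CPM in WT UV and 0.308, 0.379 and 0.149 CPM in WT NoUV. KO UV lay below KO NoUV without overlap, WT UV overlapped WT NoUV, and the difference was -2.48 (95% interval -4.29 to -0.67, -3.73 without KO UV 2), on few counts. The myeloid inhibitory receptor gene Cd200r1 (0.74, 95% interval -0.28 to 1.77, 0.14 without WT NoUV 3) and Cd274, which encodes PD-L1 (0.11, 95% interval -0.70 to 0.92, -0.34 without KO UV 2 and 0.33 without KO UV 3), had intervals that included 0.

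Glucocorticoid and fasting genes had 11 of 12 below 0 (median -0.27), and the median ran from -0.57 without WT NoUV 2 (3 above 0) to -0.10 without WT NoUV 3 (3 above 0). Pdk4, a kinase that turns muscle toward fat use, had 896, 645 and 361 CPM in KO UV, 661, 123 and 271 CPM in KO NoUV, 402, 358 and 248.7 CPM in WT UV and 84.7, 61.8 and 20.7 CPM in WT NoUV. KO UV overlapped KO NoUV, and WT UV did not overlap WT NoUV. The Pdk4 difference was -1.74 (95% interval -3.47 to -0.013, -0.95 without KO NoUV 1). The transcription factor gene Zbtb16 (-0.85, 95% interval -1.997 to 0.29, -0.49 without WT UV 2) and the muscle ubiquitin ligase gene Trim63 (-0.70, 95% interval -1.64 to 0.24, -1.05 without KO UV 1 and -0.41 without KO NoUV 1) lay on the same side with intervals that included 0.

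Hox and body position genes had 10 of 18 above 0 (median 0.079), with En1 and Hoxb6 (0.69, 95% interval 0.069 to 1.31) above 0 and Hoxa10 (-0.95, 95% interval -1.81 to -0.089) below 0 at an unadjusted p under 0.05. Over all genes, 0.899% had such a p with a difference above 0 and 0.638% with one below 0. The list median ran from -0.069 without KO NoUV 3 (7 above 0) to 0.14 without KO NoUV 2 (12 above 0). Hoxc10, a gene of the posterior body that was chosen after its values were seen, had 5.87, 4.77 and 6.47 CPM in KO UV, 0.0275, 0.0235 and 0.0579 CPM in KO NoUV, 5.20, 4.63 and 7.74 CPM in WT UV and 0.0220, 0 and 0 CPM in WT NoUV. It separated UV from NoUV libraries in both genotypes. The body site of each skin sample is not given in the labels, and its part in the differences was not tested.

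Macrophage markers, with Msr1 at their head, had 15 of 15 above 0 (median 0.54), against 54.1% of all genes. Their median ran from 0.24 without WT NoUV 1 (11 above 0) to 0.81 without WT NoUV 2 (15 above 0). Their summed level was 1489 to 2530.0 CPM in KO UV, 906 to 1232 CPM in KO NoUV, 879 to 1336 CPM in WT UV and 599 to 1029 CPM in WT NoUV, and KO UV lay above all other libraries. The coagulation factor gene F13a1 (0.66, 95% interval -0.19 to 1.51, 0.36 without WT NoUV 3) and the hyaluronan receptor gene Lyve1 (0.62, 95% interval -0.23 to 1.48, 0.26 without WT NoUV 1) of resident macrophages came next. The macrophage sum stood highest in the same group as the interferon-stimulated and chemokine genes above, and its part in their differences was not tested.

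Neutrophil markers had 8 of 8 tested members above 0 (median 0.94), against 54.1% of all genes. Their median ran from 0.41 without WT NoUV 1 (5 above 0) to 1.49 without KO NoUV 3 (7 above 0). The defining granule and surface genes Camp, Ngp and Ly6g had at most 9, 12 and 4 counts in any library and were not tested. The alarmin gene S100a8 had 2.93, 7.45 and 6.01 CPM in KO UV, 0.687, 0.777 and 1.56 CPM in KO NoUV, 5.81, 5.16 and 3.56 CPM in WT UV and 7.16, 0.884 and 1.73 CPM in WT NoUV. WT NoUV 1 lay within the KO UV range and above every WT UV library. The S100a8 difference was 1.89 (95% interval 0.021 to 3.76, 0.56 without WT NoUV 1). Its partner S100a9 (2.01, 95% interval 0.21 to 3.80, 0.70 without WT NoUV 1) and Retnlg, a gene of mouse neutrophils (1.74, 95% interval -0.0027 to 3.48), lay on the same side.

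Skeletal muscle markers lay on the other side, with 20 of 20 below 0 (median -0.42), against 45.9% of all genes. Of these, 17 kept their sign whichever library was left out, against 37.7% of all genes, and Myh2 and Myh1 alone had an unadjusted p under 0.05. Their summed level was 25220.0 to 45600.0 CPM in KO UV, 29530.0 to 35980.0 CPM in KO NoUV, 23820.0 to 34760.0 CPM in WT UV and 14750.0 to 23720.0 CPM in WT NoUV. KO UV overlapped KO NoUV, whereas WT UV lay above WT NoUV by a narrow gap. Neb, which encodes the thin filament ruler nebulin, had -0.62, 95% interval -1.43 to 0.20, -0.32 without WT UV 1. The median ran from -0.63 without WT NoUV 2 (0 above 0) to -0.28 without WT NoUV 3 (3 above 0), and without KO UV 3 and KO NoUV 2 together it was -0.19 (16 of 20 below 0).

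Fibroblast markers had 12 of 12 above 0 (median 0.30), against 54.1% of all genes. Col3a1, a fibrillar collagen of the dermis, had 4962, 5045 and 4295 CPM in KO UV, 2710.0, 2687 and 3423 CPM in KO NoUV, 3156, 2272 and 3135 CPM in WT UV and 3672, 2028 and 3548 CPM in WT NoUV. The KO UV libraries were the 3 highest, and the difference was 0.81 (95% interval 0.11 to 1.504). The type I collagen genes Col1a1 (0.79, 95% interval -0.043 to 1.61, 0.49 without WT NoUV 1) and Col1a2 (0.58, 95% interval -0.19 to 1.35, 0.36 without WT NoUV 1) came next. The list median ran from 0.0042 without WT NoUV 3 (6 above 0) to 0.47 without WT NoUV 2 (12 above 0).

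T cell markers had 13 of 20 below 0 (median -0.25), with the kinase gene Lck (-0.73, 95% interval -1.56 to 0.11) and the receptor chain genes Trdc (-0.83, 95% interval -1.85 to 0.18, -0.40 without WT UV 1) and Trac (-0.65, 95% interval -1.76 to 0.46, -1.13 without WT NoUV 3). The T cell median ran from -0.51 without WT NoUV 3 (4 above 0) to -0.13 without WT UV 1 (6 above 0). Dendritic and Langerhans cell markers had 11 of 12 below 0 (median -0.33), and their median ran from -0.42 without KO NoUV 3 (2 above 0) to -0.26 without WT UV 1 (3 above 0). Neither direction held with the muscle and hair follicle levels as covariates, which had a difference of their own, as given above. In that fit 11 of 20 T cell markers (median 0.081) and 6 of 12 dendritic and Langerhans markers (median -0.00069) lay above 0, against 53% of all genes. Xcr1, a chemokine receptor of cross-presenting dendritic cells, had 0.897, 0.765 and 0.464 CPM in KO UV, 4.42, 5.09 and 3.62 CPM in KO NoUV, 0.775, 0.248 and 0.512 CPM in WT UV and 1.17, 1.64 and 1.70 CPM in WT NoUV. KO NoUV lay above all other libraries, and the difference was -1.08 (95% interval -2.23 to 0.066, -0.68 without WT UV 1). The chemokine gene Ccl22 had -0.56, 95% interval -1.23 to 0.11.

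Growing hair follicle genes had 9 of 12 tested members below 0 (median -0.46), with a range from -1.24 without KO UV 3 (1 above 0) to 0.19 without WT UV 3 (8 above 0). The hair shaft regulator Hoxc13 had 1.79, 0.835 and 1.93 CPM in KO UV, 8.05, 9.44 and 8.51 CPM in KO NoUV, 1.71, 1.27 and 10.3 CPM in WT UV and 8.42, 7.10 and 11.3 CPM in WT NoUV. WT UV 3 was at the level of the NoUV libraries, unlike the other UV libraries. The Hoxc13 difference was -1.49 (95% interval -3.32 to 0.33, 0.078 without WT UV 3), and the follicle transcription factor gene Sox21 had -0.78, 95% interval -1.45 to -0.11.

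Erythroid genes, which mark blood, had 7 of 7 above 0 (median 0.88), against 54.1% of all genes, with the band 3 gene Slc4a1 (1.13, 95% interval -0.92 to 3.18, 0.68 without KO NoUV 3 and 1.72 without WT UV 2). Their median ran from 0.47 without KO UV 2 (6 above 0) to 1.37 without WT UV 2 (7 above 0). Their summed level was 263, 238 and 51.3 CPM in KO UV, 69.9 to 105 CPM in KO NoUV, 27.7 to 177 CPM in WT UV and 60.4 to 94.7 CPM in WT NoUV. KO UV 3 lay below every KO NoUV library. Schwann cell markers had 7 of 9 above 0 (median 0.25), with Ngfr at their head, and their median ran from 0.13 without WT NoUV 2 (8 above 0) to 0.32 without KO UV 3 (8 above 0). Mast cell markers had 8 of 11 above 0 (median 0.20) and adipocyte markers 1 of 12 (median -0.19). The mast cell median ran from -0.12 without KO NoUV 2 (5 above 0) to 0.53 without KO NoUV 3 (9 above 0) and the adipocyte median from -0.35 without KO NoUV 1 (1 above 0) to -0.066 without WT UV 2 (5 above 0). Endothelial (7 of 14), sebaceous gland (4 of 8), melanocyte (3 of 8) and B and plasma cell markers (2 of 6) had medians of 0.017, 0.013, -0.020 and -0.037 in that order, and all 4 changed sign with single libraries left out. The endothelial median ran from -0.11 without WT NoUV 3 (4 above 0) to 0.14 without KO UV 3 (9 above 0) and the sebaceous gland median from -0.22 without WT NoUV 2 (3 above 0) to 0.19 without KO NoUV 3 (5 above 0). That of melanocyte markers ran from -0.92 without KO UV 3 (1 above 0) to 0.77 without WT UV 3 (7 above 0), and that of B and plasma cell markers from -0.34 without KO UV 2 (2 above 0) to 0.45 without WT UV 1 (5 above 0).

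**Figure D4:**
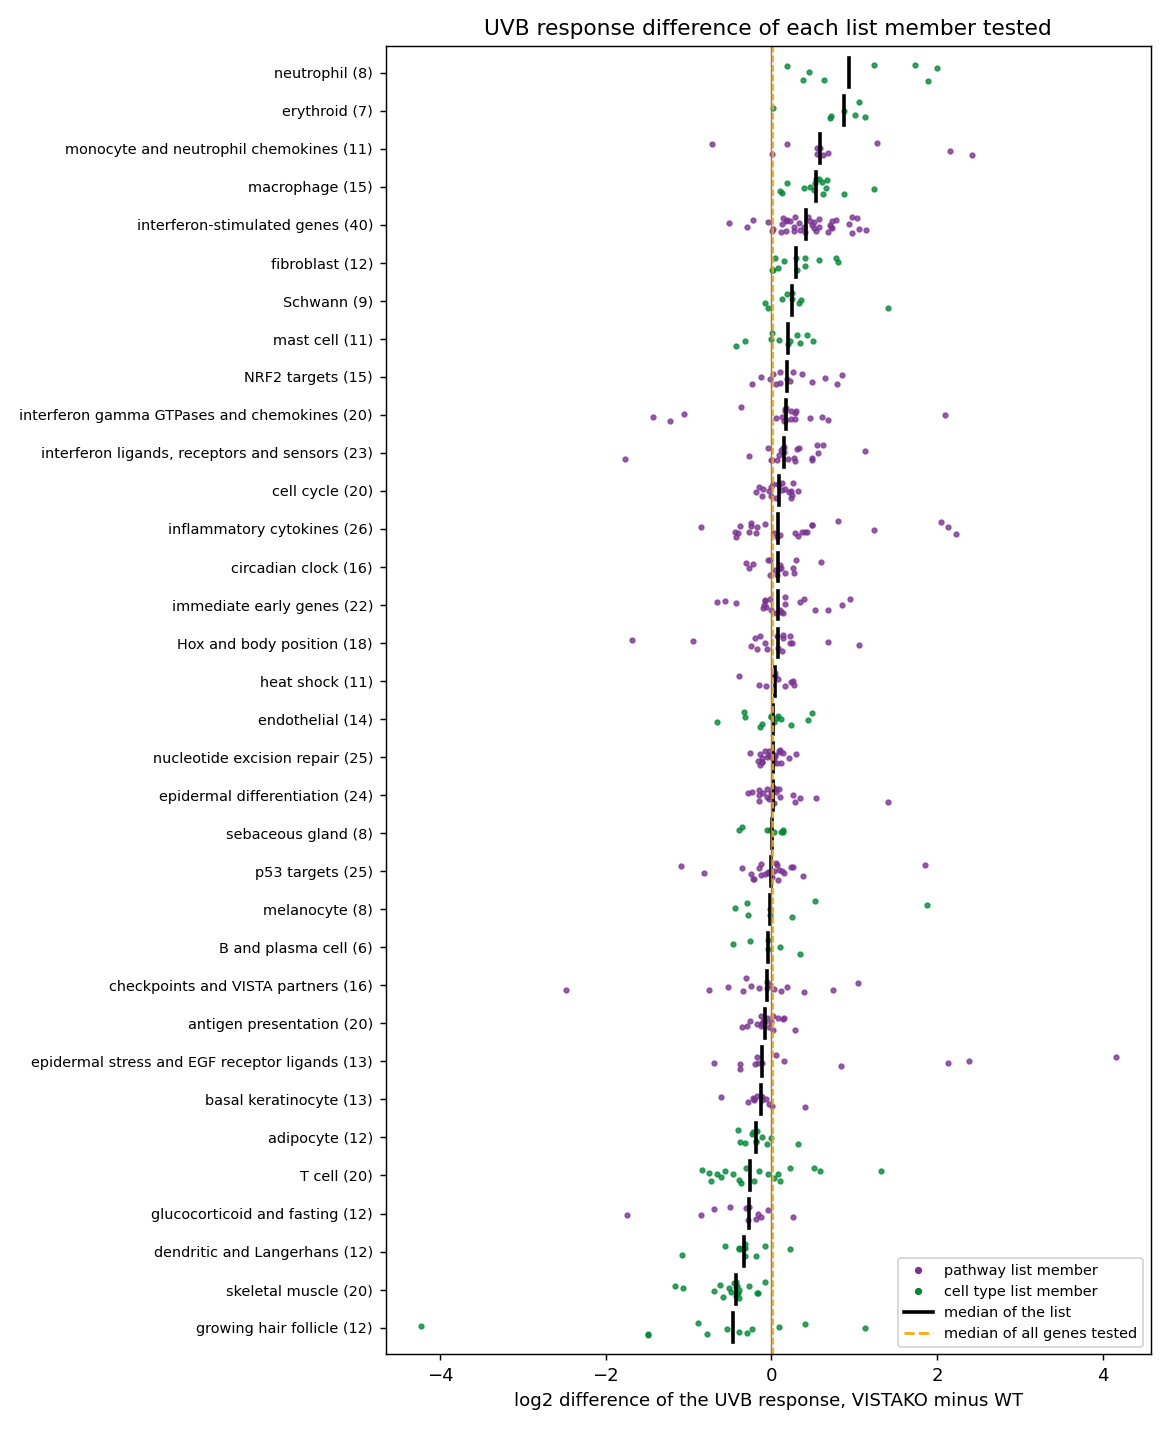
Difference of the UVB response, knockout minus wild type (log2, x axis), of each tested member of the 34 gene lists (rows), with list medians marked and the median of all genes, 0.023, as a line. All macrophage, neutrophil, erythroid and fibroblast members lie above 0 and all skeletal muscle members below 0.

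**Figure D5:**
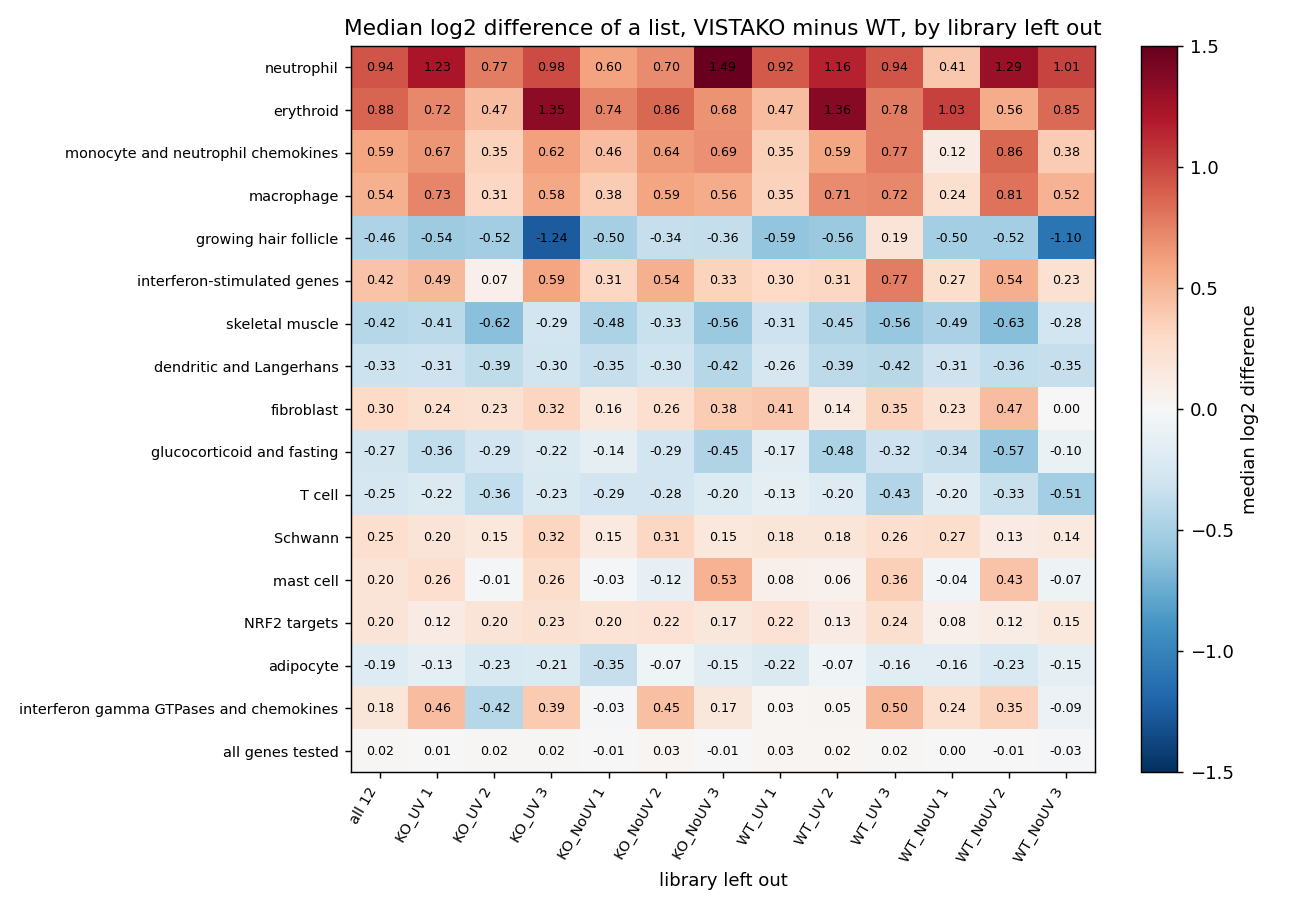
Median log2 difference of 16 lists and of all genes tested (rows) in the fit of all 12 libraries and in the 12 fits without 1 library (columns), with red above 0 and blue below 0. The interferon-stimulated median is 0.073 without KO UV 2, the chemokine median is 0.12 without WT NoUV 1, and the skeletal muscle median stays between -0.63 and -0.28.

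The keratinocyte experiment of the series allowed a test of whether the difference itself differed between a whole-body and a keratinocyte knockout. It set K14creVsirfl/fl mice against Vsirfl/fl mice, with the same 2 treatments and 7.12 to 31.14 M counts per library. In a joint fit of all 28 libraries, edgeR called the whole-body difference minus the keratinocyte difference for 0 of 21851 genes (0%), with an unadjusted p under 0.05 for 351 (1.61%). The keratinocyte experiment alone gave 0 called genes of 19718 (0%), with 248 (1.26%) at an unadjusted p under 0.05. DESeq2 called 4 genes in the joint fit, Krtap4-2, Krtap19-9b, Krtap3-3 and A030014E15Rik, each with at most 6 counts in any whole-body library. The experiments carry different batch labels and were counted in separate tables, so that batch and experiment cannot be told apart. Gene positions of the keratinocyte table mostly did not match GRCm38, unlike those of the whole-body table, and the effect on the joint fit was not tested.

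Interferon-stimulated genes lay mostly on opposite sides of 0 in these experiments. In the keratinocyte experiment 6 of 40 were above 0 (median -0.38), where 49.8% of all genes were, against the 36 of 40 in the whole-body experiment. The difference between the experiments was above 0 for 37 of 40 (median 0.83), against 48.8% of all genes. The GTPases and chemokines induced by interferon gamma had 17 of 18 tested members above 0 in the keratinocyte experiment (median 0.36). Between the experiments 7 of 20 of these lay above 0 (median -0.24). The keratinocyte medians were not refitted without single libraries. Of the interferon-stimulated members, Irf7 had a keratinocyte difference of -1.15, 95% interval -1.90 to -0.41. Its difference between the experiments was 2.04, 95% interval 0.59 to 3.48. For Phf11d it was 1.65, 95% interval 0.47 to 2.83, and for Trim30a 1.30, 95% interval 0.054 to 2.54. These 3 were the members with an unadjusted p under 0.05, against 0.833% of all genes in that direction, and each had an adjusted p of 1 by edgeR's quasi-likelihood test with Benjamini-Hochberg adjustment.

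Macrophage markers had 0 of 15 above 0 in the keratinocyte experiment (median -0.49), and the median difference between the experiments was 0.95 (15 of 15 above 0), with Lyve1 at 2.23, 95% interval 0.49 to 3.97. Fibroblast markers had 2 of 12 above 0 there (median -0.44), with Col1a1 at 1.55, 95% interval 0.39 to 2.70 between the experiments. Skeletal muscle markers had 13 of 20 above 0 there (median 0.072) and T cell markers 14 of 20 (median 0.30). Neutrophil markers lay above 0 in both experiments, with 7 of 8 in the keratinocyte experiment (median 1.04). Growing hair follicle (0 of 12, median -1.36) and melanocyte markers (0 of 8, median -1.78) were below 0 there beside the interferon-stimulated and macrophage lists, and their part in those differences was not tested. Wdfy1 had a keratinocyte difference of -0.026, and the difference between the experiments was 0.99, 95% interval 0.029 to 1.95.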

How the data were processed

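The deposited files hold raw counts per gene, with no normalization by the authors. Per the submitters' processing notes, the tools were cutadapt 4.6, HISAT2 2.1.0 and featureCounts of Subread, with build GRCm38. Strand and multi-mapping settings are not given in the sources used here, so near-identical, overlapping and antisense genes are uncertain. Groups came from the sample titles. The test was that of edgeR 4.0.16 under R 4.3.3 (filterByExpr, TMM scaling, robust quasi-likelihood fit, 1 coefficient per group), with Benjamini-Hochberg adjustment over all genes tested at 0.05. Levels are CPM after TMM scaling, and intervals are 95%. P-values measure the spread between these libraries, which may be technical. The code was tested on simulated data. No library pair within a group agreed within sampling noise (chi-square per degree of freedom at least 37.5).

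Named genes were Vsir, the 10 genes with the smallest p on each side with log2 CPM averaging 1 or more (without predicted, mitochondrial and Krtap genes), 20 fixed genes (1 of them is not reported here), and up to 3 members of each list with the smallest p. The 34 lists are described by counts and medians, without a test. The members and lists were chosen with earlier results of these data known. Gene positions are those of the whole-body table, and tables of the 2 experiments were joined by gene identifier. Alternatives were DESeq2 1.42.0, its size factors in edgeR, limma-voom (limma 3.58.1), 2 other filters on low counts, a fit without robust estimation, a replicate block, the mean levels of the muscle and hair follicle lists as covariates, and leaving out each library. Leaving out pairs of libraries was chosen after seeing the data. Promoters were searched in Python 3.11.15.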

Additional observations from a re-analysis of the deposited data

How the results depend on the processing

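No named gene reported here was called under any of 22 alternatives, and 68 of 86 kept their sign under all of them. In the whole-body difference the count of genes called was 0 throughout. The count at an unadjusted p under 0.05, 313, was 688 without a filter, 173 with the strict filter, 1136 with the muscle and hair follicle levels as covariates, 618 without WT UV 2 and WT NoUV 1 together, and 212 to 636 when each library was left out, the highest without WT NoUV 1. It was 476 without WT UV 2, 570.0 without WT UV 3 and 535 without WT NoUV 2. In the joint fit, DESeq2 called 4 genes, and 351 genes at an unadjusted p under 0.05 became 875 without a filter and 162 with the strict filter. The filters change how many genes enter, and the cause of the other shifts was not tested. With the replicate block, edgeR called 0 genes and counted 354 at an unadjusted p under 0.05, and no call changed. Deviations of same-numbered libraries correlated at -0.383 to 0.334 (median 0.124), over 0.1 in 11 of 18 pairs, among them all 3 pairs of KO UV with KO NoUV, against 6 of 36 pairs of other numbers (median -0.0525), and 6 of 12 libraries correlated best with one of their own number. The numbers were not taken as pairs, because 7 of the 18 pairs were not over 0.1 and no label ties a number to a litter or batch.

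Signs turned in 42 of 1884 values of named genes, and the cause was not tested. With the muscle and hair follicle levels as covariates, some list medians also turned their sign. Besides lists named above, they were inflammatory cytokines (-0.19), excision repair (-0.055), checkpoint genes and VISTA partners (0.22), sebaceous gland (-0.43) and B and plasma cell markers (0.58). With those covariates the difference was 0.26 for Vsir, 0.29 for Cxcl10, -0.28 for Il1b, -0.068 for Ccl2, 0.10 for Trac, 0.096 for Xcr1 and 0.18 for Neb. Without WT UV 2 and WT NoUV 1 it was -0.23 for Ifit1, -0.71 for Isg15, -0.21 for Il1b, -0.32 for Krt6a, -0.086 for Krt6b and -0.73 for Krt16. Without KO UV 3 and KO NoUV 2 it was 0.031 for Vsir and 0.011 for Cdkn1a, and by limma-voom 0.013 for Tnf and 0.044 for Cxcl1. Leaving out each library gave -0.20 to 1.92 for Ifit1, -0.83 to 0.75 for Isg15, -0.48 to 0.35 for Il1b, -0.92 to 0.028 for Tnf, -1.28 to 0.52 for Cxcl1, -0.071 to 0.52 for Ccl2, -0.36 to 0.11 for Cdkn1a, -0.63 to 2.87 for Krt6a, -0.34 to 0.33 for Cd274, -0.14 to 3.66 for Ccl4, -0.013 to 4.69 for Krt6b, -1.02 to 2.63 for Krt16 and -1.94 to 0.078 for Hoxc13.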
